A study of Mus musculus with 16 samples.

Results

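Macrophages of the postnatal mouse liver were followed through 10 marker genes in livers with hepatic deletion of Mettl3 and in Control livers. The genes were taken by symbol from the 53379 rows of the expression table: Clec4f, Marco, Timd4, Vsig4 and Cd5l mark resident Kupffer cells, Adgre1, Cd68 and Csf1r mark macrophages in general, and Gpnmb and Trem2 mark the lipid-associated macrophages that gather in fatty and scarred tissue. All 10 were among the 14913 genes tested, which had at least 1 FPKM (fragments per kilobase of transcript, scaled to the sequencing depth of the library) in at least 2 libraries, but Gpnmb and Trem2 met this minimum only through the 2 W4 cKO libraries, so that they were tested because of the group in which they were high.

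The livers came from C57BL/6J mice on the first day after birth (P1) and at the ages of 1 week (W1), 2 weeks (W2) and 4 weeks (W4). Mettl3 cKO mice (Mettl3 flox/flox with Alb-Cre) came from floxed mice crossed with heterozygous Alb-Cre mice, and Control mice were littermates labelled WT, for which the sources used here do not state the floxed alleles. The paper counts offspring of Mettl3 flox/flox mice crossed with Mettl3 flox/- Alb-Cre mice, a cross in which each pup would inherit a floxed allele. It does not say whether the sequenced mice came from that cross. Cre was driven by the albumin enhancer and promoter, which act in hepatocytes, so the macrophages of a cKO liver were not the cells in which the gene was deleted. Each of the 8 groups held 2 libraries, 1 per mouse, made from poly(A) RNA of whole liver, and livers of 8-week-old mice were not analysed here.

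Kupffer cells line the liver sinusoids, where they clear bacteria, aged red cells and debris from portal blood. They are seeded before birth and keep their identity through signals from the neighbouring hepatocytes, stellate cells and endothelial cells, and they depend on the receptor Csf1r for survival. When the liver is injured, monocytes enter from the blood, and some of them become Trem2 and Gpnmb expressing cells that take up lipid and lie along scars. In whole liver, fewer cells of a type and less RNA per cell cannot be told apart.

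Assigned depth, read from the steps between low FPKM values, was 10770000 to 15477000 reads per library, and 1 read in a transcript of 2 kb was worth 0.0323 to 0.0464 FPKM. Intervals given for reads cover counting error only. Whole-gene Mettl3 did not check the genotype labels, since exons outside the floxed part are still counted: it stood at 6.72 to 11.3 FPKM in the libraries labelled cKO, against 4.94 to 8.12 FPKM in Control libraries. At each of the 4 ages both cKO libraries lay above both Control libraries, and the mean difference over ages was 0.35 on the log2 scale (adjusted p = 0.00364 by limma), opposite in direction to the label. cKO below therefore means the label. Both W1 cKO livers were female and both W1 Control livers male by sex-linked transcripts, so sex and genotype cannot be told apart at W1. All W2 and W4 libraries were male, and at P1 both cKO libraries and Control replicate 2 were female. Sex and age therefore cannot be told apart between P1 and W4 in cKO livers. P1 Control was the only group with both sexes, so a term for sex rests on the difference between its 2 libraries. Mitochondrially encoded genes held 25.2 and 43.8% of the summed FPKM in W2 cKO libraries and 58.1 and 59.0% in W2 Control libraries.

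At W4 all 10 genes were higher in cKO livers than in Control livers, while at P1 none passed the test and at W1 and W2 Marco alone did. Gpnmb, Marco and Cd68 had the largest W4 differences on log2(FPKM + 1), while by the ratio of mean FPKM Trem2 (14.0-fold) came after Gpnmb and before Marco, and Clec4f and Timd4 had the smallest of the resident genes. In Control livers 6 of the 10 genes, led by Marco, were lower at W4 than at P1. In cKO livers Marco was lower at W4 than at P1, and Vsig4, Adgre1, Cd68, Gpnmb and Trem2 were higher. Differences were tested with limma on log2(FPKM + 1), on which scale log2 fold changes are given with their standard error (SE), and a call below stands for an adjusted p under 0.05 after Benjamini-Hochberg correction over all 14913 genes.

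**Figure D1:**
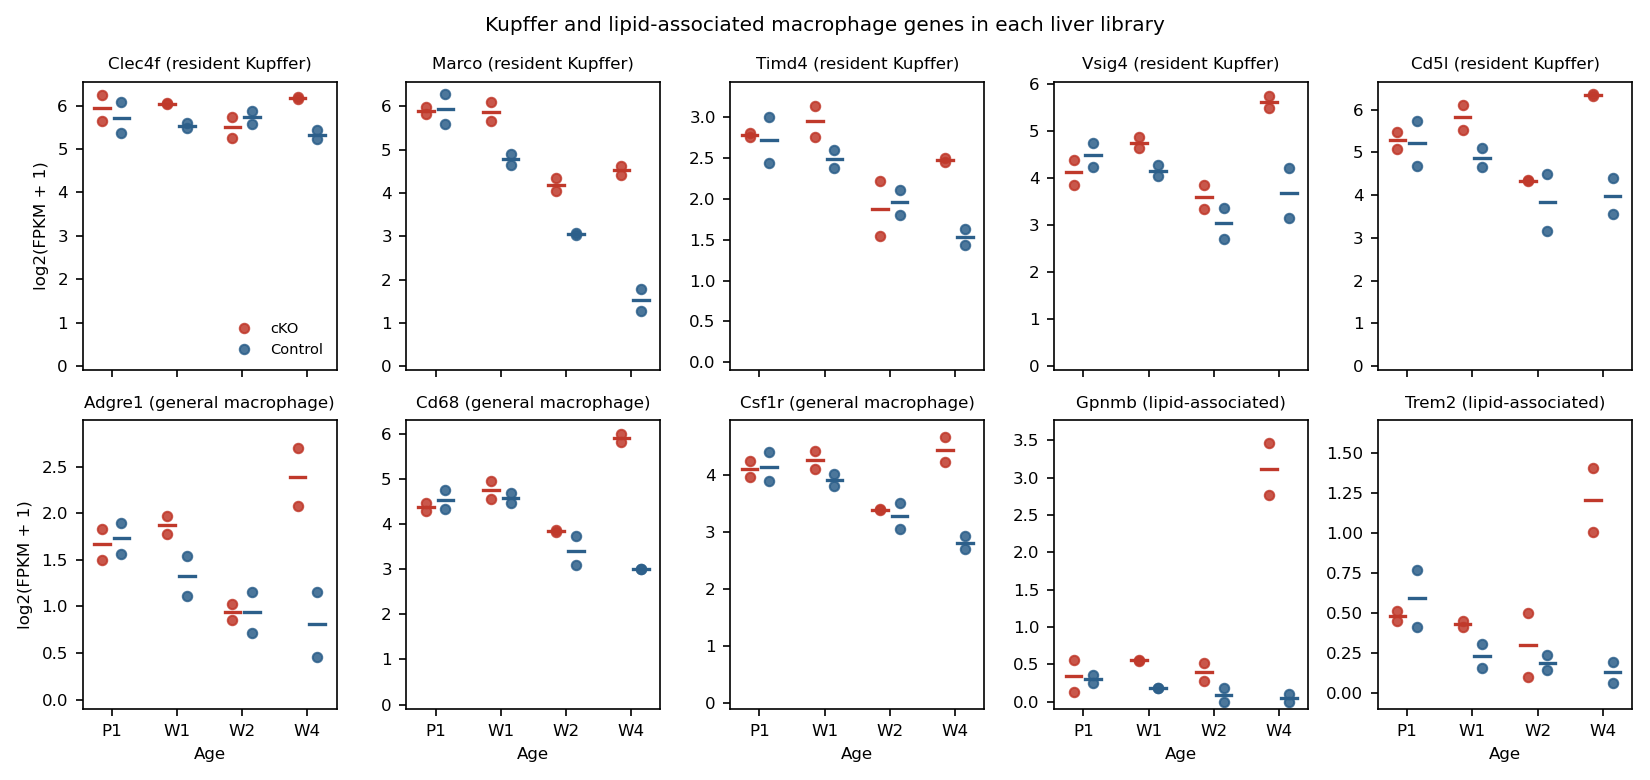
Level of each of the 10 genes in every library, as log2(FPKM + 1) by age, with cKO in red to the left of Control in blue. Points are libraries and bars are the mean of the 2 libraries of a group. At W4 both cKO libraries lay above both Control libraries for all 10 genes, and the vertical axes differ between panels.

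These W4 counts stand in a liver where much of the transcriptome differed. At W4, 46.9% of all tested genes were called higher and 12.4% lower in cKO livers, with a median log2 fold change over all genes of 0.44, so the 10 of 10 members are to be read against these shares. Gpnmb and Trem2 were tested only through the W4 cKO libraries, and without them 8 of 8 were called higher. At P1 the 0 of 10 members called by limma stood against 0.0738% of genes called higher and 0.0939% called lower, and 0 members had an unadjusted p under 0.05 or were called by limma-voom. At W1 the 1 member stood against 3.24% called higher and 1.59% called lower. At W2 it stood against 24.6% called higher and 4.49% called lower. Both cKO libraries lay above both Control libraries for 0, 9, 3 and 10 of the 10 members at P1, W1, W2 and W4, and for 17.8, 34.5, 46.9 and 59.5% of all tested genes. At W1 Cd68 was the exception, and at W2 the 3 were Marco, Cd68 and Gpnmb.

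The resident Kupffer genes differed widely among themselves in level and in course. Clec4f (ENSMUSG00000014542, mm10 chromosome 6, 83644542 to 83656187, minus strand) encodes a C-type lectin that is found on Kupffer cells and on few other cells. In cKO livers it stood at 75.5 and 49.4 FPKM at P1, 64.3 and 66.2 at W1, 37.2 and 52.5 at W2 and 72.8 and 70.3 at W4. In Control livers the values were 40.1 and 67.2 FPKM at P1, 43.5 and 47.3 at W1, 46.6 and 58.2 at W2 and 42.3 and 36.7 at W4. Clec4f thus held a high level at every age and in both genotypes, and its genotypes were separate at W1 and W4 only. The W4 difference in limma (0.85 on the log2 scale, SE 0.26, adjusted p = 0.0134) corresponded to 1.81-fold more FPKM in cKO livers, and the W1 difference (0.51, SE 0.26, adjusted p = 0.308) did not pass. The W4 call was lost without W4 Control replicate 2 (adjusted p = 0.0774) or W4 cKO replicate 1 (adjusted p = 0.0613).

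Marco (ENSMUSG00000026390, chromosome 1, 120474538 to 120505024, minus strand), a scavenger receptor for bacteria and particles, had the largest difference between W4 and P1 of the 10 genes in Control livers. In cKO livers it stood at 62.6 and 55.5 FPKM at P1, 67.8 and 49.4 at W1, 15.5 and 19.3 at W2 and 23.6 and 20.4 at W4. In Control livers it stood at 47.1 and 76.5 FPKM at P1, 29.1 and 23.9 at W1, 7.45 and 7.10 at W2 and 2.44 and 1.41 at W4. The genotypes overlapped at P1, and from W1 on every cKO library was above every Control library of its age. The log2 fold changes were 1.10 at W1 (SE 0.25, adjusted p = 0.0252), 1.15 at W2 (SE 0.25, adjusted p = 0.0046) and 3.00 at W4 (SE 0.25, adjusted p = 1.2e-06), the last one an 11.5-fold difference in FPKM. The W1 call was lost with a term for sex (0.42, adjusted p = 0.917), with no filter on low values (adjusted p = 0.0561) and without W1 cKO replicate 1 (0.88, adjusted p = 0.174), W1 Control replicate 1 (1.24, adjusted p = 0.086) or W1 Control replicate 2 (0.97, adjusted p = 0.168). The term for sex rested on the P1 Control pair alone. The W2 call was lost when the libraries were scaled to the sum of nuclear genes (adjusted p = 0.0632).

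Timd4 (ENSMUSG00000055546, chromosome 11, 46810800 to 46844332, plus strand), a phosphatidylserine receptor through which resident macrophages bind dying cells, had the lowest mean FPKM of the resident genes in each group, overlapping with Marco in W4 Control livers. It had 4.48 and 4.66 FPKM in W4 cKO livers, against 1.70 and 2.11 FPKM in W4 Control livers, a log2 fold change of 0.94 (SE 0.24, adjusted p = 0.00462). At W1 it had 7.79 and 5.78 FPKM in cKO livers and 5.03 and 4.21 FPKM in Control livers (adjusted p = 0.325). At P1 and W2 the genotypes overlapped, and the level over these 2 ages ranged from 1.92 to 6.00 FPKM in cKO livers and from 2.49 to 7.03 FPKM in Control livers.

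Vsig4 (ENSMUSG00000044206, chromosome X, 96247203 to 96293438, minus strand), a complement receptor that captures opsonised bacteria, and Cd5l (ENSMUSG00000015854, chromosome 3, 87357881 to 87371073, plus strand), a secreted scavenger receptor protein of macrophages, had the larger W4 differences next to Marco. Vsig4 had 53.0 and 43.8 FPKM in W4 cKO livers and 17.4 and 7.90 FPKM in W4 Control livers (log2 fold change 1.94, SE 0.34, adjusted p = 0.000378). Cd5l had 80.9 and 78.4 FPKM in W4 cKO livers and 20.2 and 10.8 FPKM in W4 Control livers (2.35, SE 0.43, adjusted p = 0.000557). In both genes the 2 Control libraries stood well apart from each other, and both still lay below the lower cKO library. At W1 Cd5l had 68.0 and 44.9 FPKM in cKO livers, against 33.3 and 24.1 FPKM in Control livers, which did not pass (0.94, SE 0.43, adjusted p = 0.263).

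The make-up of the resident set differed between the genotypes at W4, which is given as a description. The 5 resident genes summed to 235 and 218 FPKM in W4 cKO livers and to 84.0 and 58.9 FPKM in W4 Control livers. Clec4f supplied 31.0 and 32.3% of this sum in W4 cKO livers, against 50.4 and 62.2% in W4 Control livers. Marco supplied 10.1 and 9.40% in W4 cKO livers and 2.90 and 2.40% in W4 Control livers, and Cd5l 34.4 and 36.0% in W4 cKO livers and 24.0 and 18.4% in W4 Control livers. At P1 the Marco shares of the 2 genotypes lay near each other, with 31.2 and 33.9% in cKO livers and 35.2 and 33.4% in Control livers. Cd5l was the highest of the 10 genes in W4 cKO livers, followed by Clec4f, Cd68 and Vsig4, whose ranges of 2 libraries did not overlap. In W4 Control livers Clec4f was the highest, and the next 2, Cd5l and Vsig4, overlapped.

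**Figure D2:**
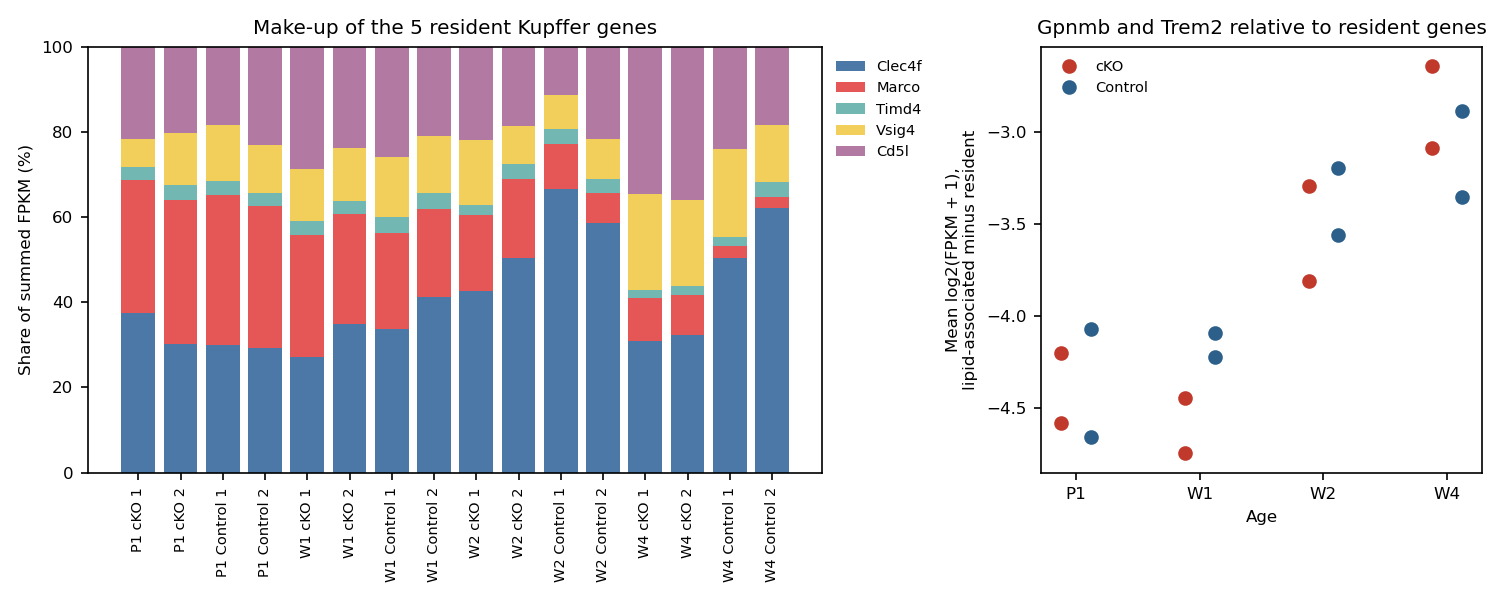
Left, share of each of the 5 resident genes in their summed FPKM, in percent, for every library, with cKO libraries left of Control libraries at each age. Right, mean log2(FPKM + 1) of Gpnmb and Trem2 minus that of the 5 resident genes, by age, 1 point per library. The Marco share was 10.1 and 9.40% in W4 cKO libraries and 2.90 and 2.40% in W4 Control libraries, and in the right panel the genotypes overlapped at W4.

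The sequences just upstream of 4 of these genes are shown because Clec4f and Marco had the smallest and the largest W4 log2 fold change of the resident genes and because Cd68 and Gpnmb had the largest of the general and of the lipid-associated members. Each run is the 250 bases before the annotated start of the gene (RefSeq, GRCm38.p6), 5′ to 3′ on the strand of the gene. For Clec4f this start lies inside the gene as placed above, which reaches to 83656187, so the 2 annotations differ. The last part of its window, with the GGAAGT that begins 33 nt before the RefSeq start, falls within that gene. Capitals mark GGAAGT, a core of the motif bound by the myeloid factor PU.1, and TGAGTCA, the AP-1 motif, each searched on both strands.
Clec4f, chr6:83656117-83656366, minus strand: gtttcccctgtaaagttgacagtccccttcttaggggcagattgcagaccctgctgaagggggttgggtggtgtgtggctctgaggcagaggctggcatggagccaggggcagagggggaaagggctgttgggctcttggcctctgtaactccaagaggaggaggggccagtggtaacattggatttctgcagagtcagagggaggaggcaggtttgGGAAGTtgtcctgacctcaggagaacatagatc
Marco, chr1:120505025-120505274, minus strand: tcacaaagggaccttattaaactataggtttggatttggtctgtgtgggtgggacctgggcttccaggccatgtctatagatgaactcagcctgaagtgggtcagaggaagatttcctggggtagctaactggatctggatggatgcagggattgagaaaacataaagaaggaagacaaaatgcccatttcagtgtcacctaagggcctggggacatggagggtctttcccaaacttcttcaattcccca
Cd68, chr11:69666171-69666420, minus strand: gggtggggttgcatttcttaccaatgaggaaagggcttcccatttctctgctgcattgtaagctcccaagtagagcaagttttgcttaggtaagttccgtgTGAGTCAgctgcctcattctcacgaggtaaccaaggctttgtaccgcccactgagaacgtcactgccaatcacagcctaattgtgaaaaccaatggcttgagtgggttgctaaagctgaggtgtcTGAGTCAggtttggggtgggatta
Gpnmb, chr6:49036268-49036517, plus strand: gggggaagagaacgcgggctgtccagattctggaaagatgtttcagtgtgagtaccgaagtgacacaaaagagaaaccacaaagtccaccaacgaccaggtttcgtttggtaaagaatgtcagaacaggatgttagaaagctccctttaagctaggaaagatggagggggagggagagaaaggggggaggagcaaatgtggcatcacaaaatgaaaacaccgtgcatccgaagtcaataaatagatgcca
A window was at hand for 8 of the 10 genes. GGAAGT was in the windows of Clec4f, Timd4 and Vsig4, that is 3 of 8, and in 19.7% of all 32851 windows of this length. TGAGTCA was in that of Cd68, where it occurred 2 times, and in 4.46% of all windows. CACGTG, the E-box read by Mitf and Tfeb, was in 0 of 8 and in 6.02% of all. The motifs did not overlap one another in the windows shown, and a match is a run of letters, not a binding site.

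Among the general macrophage genes Cd68 was the furthest apart at W4. Cd68 (ENSMUSG00000018774, chromosome 11, 69664213 to 69666153, minus strand), a lysosomal glycoprotein of phagocytes, had 55.4 and 62.8 FPKM in W4 cKO livers and 7.0 and 7.04 FPKM in W4 Control livers. The difference was 8.42-fold in FPKM and 2.90 on the log2 scale (SE 0.22, adjusted p = 6.88e-07). At P1, W1 and W2 the log2 fold changes were -0.17, 0.18 and 0.44 (SE 0.22 each), and none passed with all libraries, although W2 did without W2 Control replicate 2 (0.75, adjusted p = 0.0391). Cd68 stood at 30.05 and 22.3 FPKM in W1 cKO livers and 24.7 and 20.9 FPKM in W1 Control livers, so that its genotypes overlapped at W1. Marco was called at this age, but there sex and genotype cannot be told apart, so no order in time is read from it.

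Adgre1 and Csf1r also passed at W4. Adgre1 (ENSMUSG00000004730, chromosome 17, 57358691 to 57483527, plus strand), which encodes the F4/80 antigen, had 5.48 and 3.20 FPKM in W4 cKO livers and 1.23 and 0.375 FPKM in W4 Control livers (log2 fold change 1.58, SE 0.28, adjusted p = 0.000392). The lower Control value rested on 17 reads. Csf1r (ENSMUSG00000024621, chromosome 18, 61100598 to 61132149, plus strand), the receptor for the macrophage growth factors Csf1 and Il34, had 24.3 and 17.7 FPKM in W4 cKO livers and 6.59 and 5.48 FPKM in W4 Control livers (1.63, SE 0.22, adjusted p = 6.21e-05). Neither gene passed at an earlier age, where Csf1r differed by -0.05 at P1, 0.34 at W1 and 0.11 at W2 and Adgre1 by -0.06, 0.55 and 0.00.

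Gpnmb and Trem2 were under 1 FPKM in every library but the 2 W4 cKO libraries. Gpnmb (ENSMUSG00000029816, chromosome 6, 49036546 to 49070929, plus strand) encodes a lysosomal membrane glycoprotein that macrophages make when they are loaded with lipid or debris. It had 10.1 and 5.82 FPKM in W4 cKO livers, where it rested on 559 and 232 reads, and 0 and 0.0774 FPKM in W4 Control livers, on 0 and 4 reads. Relative to assigned depth the read ratio was 207 (exact 95% interval 80.5 to 762), an interval that is wide because of the 4 Control reads. The log2 fold change was 3.07 with 1 FPKM added (SE 0.22, adjusted p = 5.15e-07), 5.86 with 0.1 FPKM added and 7.99 by limma-voom on recovered reads (SE 1.08, adjusted p = 1.62e-05), since the added FPKM compresses the change of a gene that is near 0 in one group.

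The earlier ages held few Gpnmb reads. At W1 the cKO libraries had 27 and 24 reads and the Control libraries 7 and 7, and at W2 the cKO libraries had 22 and 11 and the Control libraries 0 and 6. The read ratio relative to depth was 3.54 at W1 (1.93 to 6.93) and 4.70 at W2 (1.94 to 13.7), intervals that leave out the variation between mice. Over libraries neither age passed, by limma (adjusted p = 0.398 and 0.334) or by limma-voom (adjusted p = 0.311 and 0.0773). At P1 there were 5 and 25 reads in cKO libraries and 14 and 11 in Control libraries.

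Trem2 (ENSMUSG00000023992, chromosome 17, 48346401 to 48354147, plus strand), a lipid-sensing receptor that signals through Tyrobp, followed the same order with fewer reads. It had 1.64 and 1.01 FPKM (118 and 52 reads) in W4 cKO livers and 0.145 and 0.0449 FPKM (9 and 3 reads) in W4 Control livers. The read ratio relative to depth was 14.8 (exact 95% interval 8.27 to 29.3), and the log2 fold change was 1.08 with 1 FPKM added (SE 0.20, adjusted p = 0.00049) and 3.91 by limma-voom (SE 0.72, adjusted p = 0.000251). Its FPKM is not on the same footing as that of the other 9 genes. The deposited values are whole reads only if Trem2 is given the length of a retained-intron transcript of 4784 nt, which is 4.40 times its longest coding transcript of 1088 nt. On the coding length the W4 cKO values would be 7.23 and 4.44 FPKM and the W4 Control values 0.636 and 0.197 FPKM. Trem2 is thus understated against the others in level, while the ratio between genotypes does not depend on the length. At W1 it had 27 and 22 reads in cKO libraries and 16 and 8 reads in Control libraries, a ratio of 1.99 (1.20 to 3.38) that did not pass over libraries (adjusted p = 0.646 by limma), and at P1 and W2 the libraries overlapped.

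Resident and lipid-associated genes were compared within libraries. In a ratio to Clec4f the total to which a library is scaled drops out. Relative to Clec4f, Gpnmb stood at 13.8 and 8.27% in W4 cKO libraries, against 0 and 0.211% in W4 Control libraries, and Trem2 at 2.26 and 1.44% in W4 cKO libraries, against 0.342 and 0.122% in W4 Control libraries. Cd68 stood at 76.1 and 89.3% of Clec4f in W4 cKO libraries and 16.6 and 19.2% in W4 Control libraries, and Marco at 32.5 and 29.1% in W4 cKO libraries and 5.76 and 3.85% in W4 Control libraries. All 9 other members were higher relative to Clec4f in both W4 cKO libraries than in both W4 Control libraries. The smallest gap was that of Timd4, with 6.15 and 6.62% in cKO libraries and 4.02 and 5.75% in Control libraries. Clec4f had the smallest W4 ratio of mean FPKM of all members (1.81-fold, followed by Timd4 with 2.4-fold). The shared direction of the other members therefore follows from the choice of Clec4f as divisor and is not a separate result. On log2(FPKM + 1), where the added constant keeps the value dependent on the scale, the mean of Gpnmb and Trem2 minus the mean of the 5 resident genes was -2.64 and -3.09 in W4 cKO libraries and -3.35 and -2.89 in W4 Control libraries, which overlapped. The difference between genotypes in this measure was 0.25 with 1 FPKM added and 2.37 with 0.1 FPKM added, so it turned on the constant.

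The order of the 10 genes at W4 was also read against macrophage genes outside the set, a scale chosen after the data were seen. On recovered reads scaled to 11 further general macrophage genes, Gpnmb remained higher in W4 cKO livers by 6.03 (SE 0.92, adjusted p = 1.19e-06 by limma-voom), Trem2 by 1.90 (SE 0.68, adjusted p = 0.014), Marco by 1.57 (SE 0.37, adjusted p = 0.000397) and Cd68 by 1.09 (SE 0.31, adjusted p = 0.00273). Clec4f was lower by this scale (-1.12, SE 0.31, adjusted p = 0.00204), and Timd4 (-0.74, adjusted p = 0.0818), Csf1r (-0.20), Vsig4 (0.05), Cd5l (0.45) and Adgre1 (0.63) did not pass. On this scale the median of all genes was -1.34 and on the scale of all assigned reads 0.65, and the error of the 11 genes is not in the SE. Gpnmb and Trem2 entered this fit only through the W4 cKO libraries, so their calls were favoured in advance. After median-of-ratios rescaling, which set the median of all genes to 0.00, Marco, Vsig4, Cd5l, Adgre1, Cd68, Csf1r and Gpnmb stayed called at W4, Clec4f (0.22, adjusted p = 0.495) and Timd4 (0.47, adjusted p = 0.144) did not, and Trem2 fell below the minimum for testing. Under that rescaling 50.4% of all W4 calls were higher, against 79.1% as deposited.

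**Figure D3:**
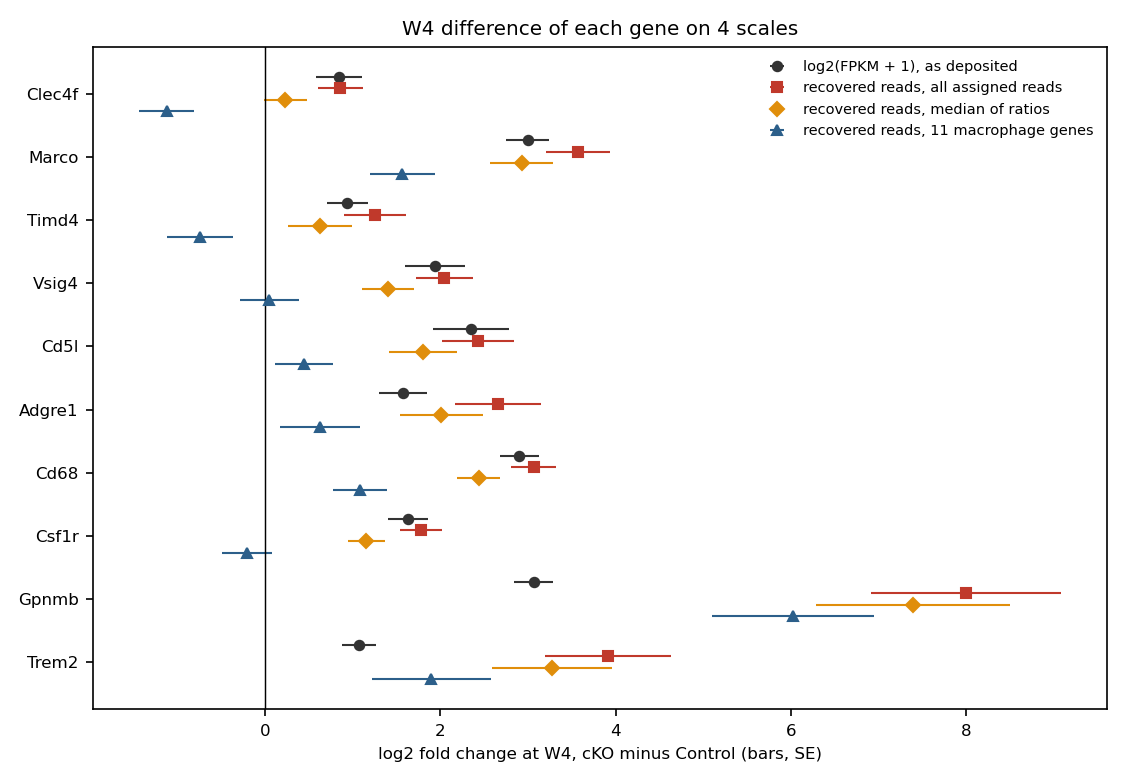
W4 log2 fold change of each gene, cKO minus Control, with bars of 1 SE, on 4 scales. Circles are log2(FPKM + 1) as deposited, and squares, diamonds and triangles are recovered reads scaled to all assigned reads, by the median of ratios and to 11 further general macrophage genes. Clec4f ran from 0.86 on the scale of all assigned reads to -1.12 on that of the macrophage genes, and Gpnmb from 7.99 to 6.03.

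Postnatal development was compared as W4 minus P1 within each genotype. In cKO livers this set males at W4 against females at P1, so age and sex cannot be told apart there. The 2 comparisons share no library with each other, but each shares libraries with the genotype comparisons at P1 and W4. In Control livers Marco was lower at W4 than at P1 (log2 difference -4.41, SE 0.25, adjusted p = 2.72e-08), and Cd68 (-1.53), Csf1r (-1.33), Cd5l (-1.22), Timd4 (-1.19) and Adgre1 (-0.92) were lower too. Clec4f (-0.39, adjusted p = 0.22), Vsig4 (-0.81, adjusted p = 0.061), Gpnmb (-0.25) and Trem2 (-0.46) did not pass. These 6 of 10 called lower, with 0 called higher, stood against 42.1% of all genes called lower and 12.4% called higher in Control livers. The calls of Cd5l and Adgre1 were lost after median-of-ratios rescaling (-0.72, adjusted p = 0.167, and -0.63, adjusted p = 0.0738) and with a term for sex. They were also lost without P1 Control replicate 2 (-0.69 and -0.75) or W4 Control replicate 2, and that of Cd5l was lost with no filter on low values.

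In cKO livers Marco was lower at W4 (-1.38, SE 0.25, adjusted p = 0.000491), the 1 member called lower. Gpnmb (2.77, adjusted p = 8.79e-07), Cd68 (1.53), Vsig4 (1.501), Trem2 (0.72) and Adgre1 (0.72, adjusted p = 0.0423) were called higher, which is 5 of 10 against 31.7% of all genes called higher and 25.4% called lower. Gpnmb and Trem2 were tested only through the W4 cKO libraries, so their calls were favoured in advance. Of the other members, 1 of 5 resident genes was called higher and 1 lower, and 2 of 3 general genes were called higher. Cd5l (1.05, adjusted p = 0.0544), Csf1r (0.34), Clec4f (0.23) and Timd4 (-0.30) did not pass. For Cd68 the log2 difference was thus 1.53 in cKO livers and -1.53 in Control livers, and for Marco the level was lower at W4 in both. With a term for sex the cKO calls of Marco (-0.69, adjusted p = 0.179) and Adgre1 (1.05, adjusted p = 0.123) were lost. That term rested on the P1 Control pair alone, so it does not separate sex from age in cKO livers. The Adgre1 call was also lost with 0.1 FPKM added (adjusted p = 0.116), without the filter (0.0956), after median-of-ratios (0.092) or nuclear-gene rescaling (0.0567), and without any 1 of the cKO libraries except W4 replicate 2 (0.0504 to 0.321). Without W4 cKO replicate 1 the count of higher and lower calls was 3, since Gpnmb and Trem2 were then not in the fit and Adgre1 did not pass.

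Blood cell markers changed with age in both genotypes. Neutrophil markers (7 genes) summed to 6.54 to 11.2 FPKM at W4 and 2211 to 2476 at P1 in cKO livers, and to 5.09 to 8.01 FPKM at W4 and 2475 to 2556 at P1 in Control livers. Erythroid markers (6 genes) summed to 215 to 229 FPKM at W4 and 15390 to 17970 at P1 in cKO livers, and to 251 to 314 FPKM at W4 and 21010 to 22530 at P1 in Control livers. Neutrophils also express several of the 11 further general macrophage genes, and scaled to those genes Timd4 (0.88), Cd5l (1.18), Adgre1 (0.71), Cd68 (0.79) and Csf1r (0.98) turned positive in the Control comparison, while Marco stayed lower (-2.55). The part of the blood cells in these age differences was not tested.

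The size of the genotype difference changed with age for 8 of the 10 members by the joint test of the 4 ages, against 49.6% of all genes. Gpnmb and Trem2, both among the 8, were tested only through the W4 cKO libraries, where they were high. Of the other members 3 of 5 resident and 3 of 3 general genes passed. The adjusted p was 7.01e-05 for Gpnmb, 7.29e-05 for Cd68, 0.000315 for Marco, 0.00377 for Csf1r, 0.0117 for Vsig4, 0.0134 for Adgre1, 0.0152 for Trem2 and 0.0348 for Cd5l. It was 0.0758 for Timd4 and 0.107 for Clec4f, which did not pass. Without W4 Control replicate 2 the count was 5, and without W4 cKO replicate 1 it was 4, where Gpnmb and Trem2 were not in the fit. Averaged over the 4 ages all 10 were called higher, with 5 of 5 resident and 3 of 3 general genes apart from Gpnmb and Trem2. The 10 calls stood against 40.6% of all genes called higher and 9.81% called lower, with log2 fold changes of 0.32 for Trem2 to 1.31 for Marco. With a term for sex, which rested on the P1 Control pair alone, 3 of these calls were left, those of Marco, Cd68 and Gpnmb. Without W4 cKO replicate 2 the count was 6, with Gpnmb and Trem2 not in the fit.

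Of 13 further Kupffer cell genes 7 were called higher and 2 lower at W4, with a median log2 fold change of 0.77. These shares are near those of all tested genes (46.9% called higher and 12.4% lower, median 0.44). The complement subunit C1qb had 134 and 104 FPKM in W4 cKO livers and 40.7 and 21.6 FPKM in W4 Control livers (1.96, adjusted p = 0.00032). C1qa (1.80) and the folate receptor Folr2 (1.40) also rose. Cd163, the haemoglobin scavenger receptor, named here after its values were seen, was called lower and changed by -0.64 (adjusted p = 0.0474). Its libraries overlapped, with 1.23 and 2.36 FPKM in W4 cKO livers and 4.57 and 2.25 FPKM in W4 Control livers. After median-of-ratios rescaling the count was 5 higher and 4 lower (median 0.30), and scaled to the 11 further general macrophage genes it was 0 higher and 7 lower (median -1.04). At W2, 3 of the 13 were called higher and 0 lower, near the 24.6 and 4.49% of all genes, and at P1 and W1 limma called 0, with 1 and 3 at an unadjusted p under 0.05 and 0 by limma-voom.

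Of 14 further genes of lipid-associated macrophages 11 were called higher and 0 lower at W4, with a median of 1.98, against 46.9% called higher, 12.4% called lower and a median of 0.44 over all genes. Cd63 had 78.9 and 85.8 FPKM in W4 cKO livers and 4.46 and 6.58 FPKM in W4 Control livers (3.69, adjusted p = 2.79e-08). Spp1, which encodes osteopontin, rose by 3.34, the tetraspanin Cd9 by 2.99 and the actin-capping gene Capg by 2.11. At W2, 7 of the 14 were called higher and 0 lower, with a median of 0.77. Over all genes 24.6% were called higher and 4.49% lower, with a median of 0.22. After median-of-ratios rescaling 5 of the 14 were called higher and 0 lower at W2 (median 0.53). Scaled to the sum of nuclear genes the W2 counts were also 5 and 0 (median 0.41). Neither Gpnmb nor Trem2 passed at W2, where both had few reads, so no order in time is read from these counts. Cd9 had 45.1 and 23.7 FPKM in W2 cKO livers and 5.02 and 5.53 FPKM in W2 Control livers (2.43, adjusted p = 7.52e-05). Scaled to the 11 further general macrophage genes, 6 were higher and 3 lower at W4 (median 1.02), and on each scale run the median was above 0 at W2 and W4. At W1 limma called 0 of 14, with 3 at an unadjusted p under 0.05 and 1 by limma-voom. At P1 the 1 call was lower, that of the lipoprotein lipase gene Lpl (-1.43, adjusted p = 0.00833), named after its value was seen.

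These genes are not confined to macrophages, and Spp1 and Cd9 are also made by bile duct cells. Ductal markers (4 genes, all called higher at W4) summed to 42.2 to 66.7 FPKM in W4 cKO livers and 1.84 to 3.15 FPKM in W4 Control livers, and at W2 to 5.54 to 9.20 FPKM in cKO livers and 2.27 to 2.88 FPKM in Control livers. Stellate markers (5 genes, all higher at W4) summed to 157 to 222 FPKM in W4 cKO livers and 25.5 to 27.1 FPKM in W4 Control livers. Endothelial markers (5 genes, all higher) summed to 108 to 121 FPKM in W4 cKO livers and 36.9 to 37.5 FPKM in W4 Control livers, and hepatocyte markers (6 genes, 3 called lower and 0 higher) to 28920 to 29730 FPKM in W4 cKO livers and 57070 to 65130 FPKM in W4 Control livers. Dendritic cell markers (1 of 3 tested called higher) summed to 6.62 to 7.05 FPKM in W4 cKO livers and 3.27 to 4.61 FPKM in W4 Control livers, and lymphocyte markers (2 of 5 tested called higher) to 5.89 to 14.3 FPKM in W4 cKO livers and 4.00 to 5.27 FPKM in W4 Control livers. The part of these cells in the W4 differences was not tested. Melanocytes also make Gpnmb, and their 4 markers summed to 0.724 to 0.895 FPKM in W4 cKO livers and 0.361 to 0.496 FPKM in W4 Control livers. Of these, Tyr and Mlana were at 0 in all 4 W4 libraries, Pmel had 0.876 and 0.698 FPKM in W4 cKO livers and 0.0722 and 0.269 FPKM in W4 Control livers, and Dct had 0.0193 and 0.0268 FPKM in W4 cKO livers and 0.289 and 0.228 FPKM in W4 Control livers. Their part in the Gpnmb difference was not tested.

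Of 11 further general macrophage genes 9 were called higher and 0 lower at W4 (median 1.66), against 46.9 and 12.4% of all genes. After median-of-ratios rescaling 7 were called higher (median 1.06), and by limma-voom on recovered reads 10. The lysosomal membrane gene Laptm5 rose by 2.55, Mpeg1, which encodes a pore-forming protein of phagocytes, by 2.42, and the signalling adaptors Tyrobp and Fcer1g by 2.02 and 1.66. At P1 limma called 0 of the 11, with 0 at an unadjusted p under 0.05 and 0 by limma-voom, at W1 it called 0, with 3 at an unadjusted p under 0.05 and 1 by limma-voom, and at W2 it called 2 higher (0 higher and 1 lower after median-of-ratios rescaling), a smaller share than the 24.6% of all genes. Of 9 monocyte genes 7 were tested and 5 of them called higher at W4 (median 0.73), against the same 46.9%. After median-of-ratios rescaling 3 of the 7 were called higher (median 0.56), and by limma-voom on recovered reads all 7. Plac8 rose by 2.80, and Ccr2, the receptor for Ccl2, had 2.25 and 1.38 FPKM in W4 cKO livers and 0.215 and 0.187 FPKM in W4 Control livers (1.21, adjusted p = 8.02e-05). Cx3cr1, the receptor for Cx3cl1, rose by 1.02, and F13a1, which stayed under 0.6 FPKM in each W4 library, by 0.53. At P1, W1 and W2 limma called 0 of the 7, with 0, 0 and 1 at an unadjusted p under 0.05 and 0 by limma-voom.

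**Figure D4:**
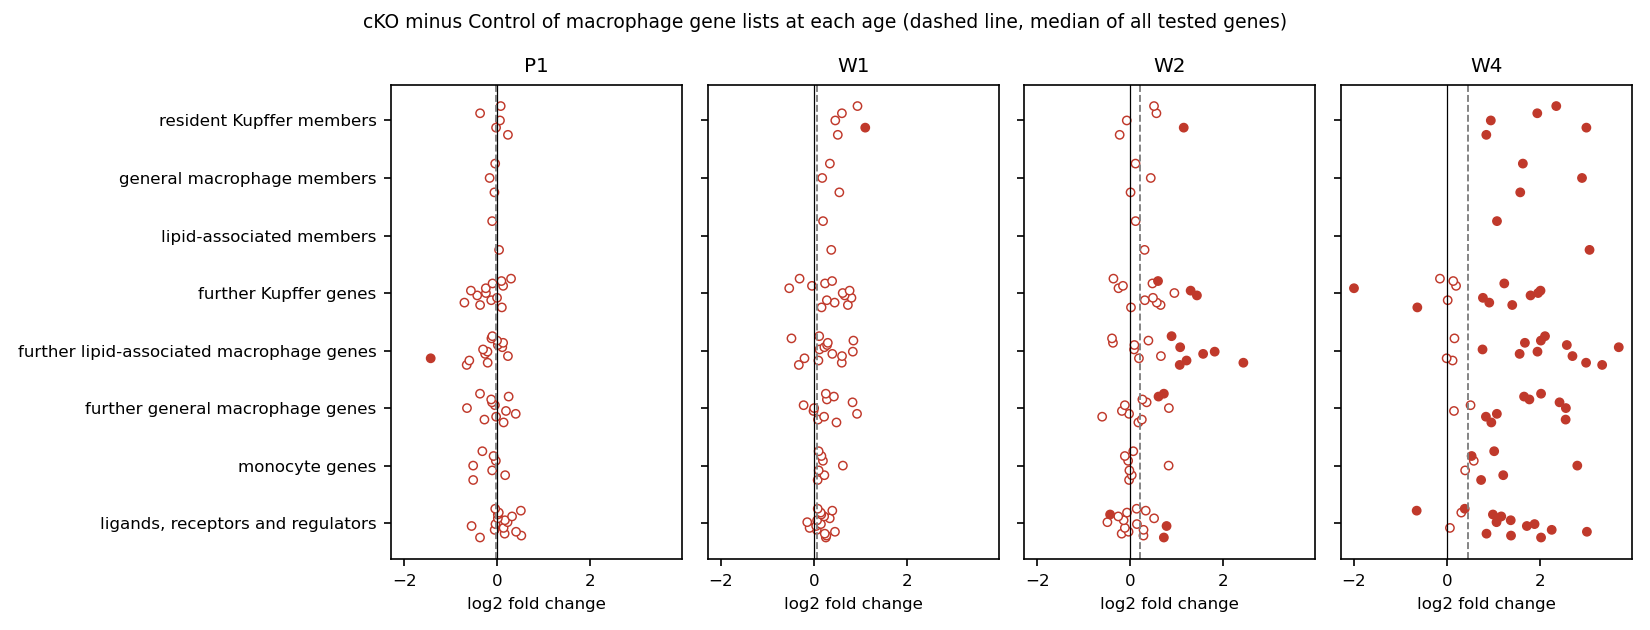
Log2 fold change, cKO minus Control, of each tested gene of the macrophage lists at P1, W1, W2 and W4. Filled points passed the test (adjusted p under 0.05 by limma), open points did not, and the dashed line is the median of all tested genes (-0.03, 0.07, 0.22 and 0.44). Of the further lipid-associated genes 7 of 14 passed at W2 and 11 of 14 at W4.

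Ligands, receptors and regulators of these cells (16 genes) were counted last. At P1 and W1 limma called 0 of the 16, with 3 and 1 at an unadjusted p under 0.05 and 0 by limma-voom at either age. At W2 it called Gdf2 (0.78), which encodes the stellate cell ligand Bmp9, and Tyrobp (0.72) higher and the transcription factor Zeb2 (-0.44) lower, and its 2 of 16 higher is a smaller share than the 24.6% of all genes. At W4, 13 were called higher and 1 lower, with a median of 1.13, against 46.9% called higher, 12.4% called lower and a median of 0.44 over all genes. After median-of-ratios rescaling the W4 counts were 10 and 1 (median 0.64), and scaled to the 11 further general macrophage genes 2 and 4 (median -0.37). Tyrobp is in both lists, so it is counted in each and is also part of that scale. At W2 both calls in the higher direction were lost after median-of-ratios rescaling, which left 0 higher and 2 lower.

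Among the ligands the chemokine genes were the furthest apart at W4. Ccl2, which draws monocytes from the blood, had 7.54 and 9.91 FPKM in W4 cKO livers and 0.14 and 0.261 FPKM in W4 Control livers (3.01, adjusted p = 6.88e-07). Cx3cl1 had 4.99 and 3.45 FPKM in W4 cKO livers and 0 and 0.173 FPKM in W4 Control livers (2.25, adjusted p = 8.12e-07). The ligands of Csf1r differed in size: Csf1 had 7.05 and 7.03 FPKM in W4 cKO livers and 2.48 and 1.75 FPKM in W4 Control livers (1.38), and Il34 had 3.15 and 3.98 FPKM in W4 cKO livers and 1.80 and 1.27 FPKM in W4 Control livers (0.85). Gdf2 rose by 1.72 and Tgfb1, a cytokine that Kupffer cells need for their identity, by 1.88.

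Downstream of Trem2, the kinase gene Syk (1.07) and the phospholipase gene Plcg2 (1.37) were called higher at W4 beside Tyrobp (2.02). Of the transcription factors, Spi1, which encodes PU.1, rose by 1.09, Irf8 by 1.17, Zeb2 by 0.99 and Tfe3 by 0.38. Tfeb, a regulator of lysosomal genes, fell by 0.65 on the log2 scale, with 4.12 and 4.48 FPKM in W4 cKO livers and 6.79 and 7.88 FPKM in W4 Control livers (adjusted p = 0.00221). The 2 not called at W4 were Mitf (0.31) and the Notch ligand Dll4 (0.06), named after their values were seen.

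The genes whose log2(FPKM + 1) was most like that of Clec4f over the 16 libraries were Ifi211 (Pearson's r 0.88), Oasl2 (0.87), Phf11b (0.84), Ifi204 (0.83) and Oas1a (0.83). Those most like Gpnmb were Prrg4, Cx3cl1, Lrrn1, F2rl1 and Unc5b (0.99 each, Spearman's rho 0.79 to 0.89). The 16 points share age and genotype, and for Gpnmb the 2 W4 cKO libraries stand far from the other 14, so these are descriptions with no test.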

How the data were processed

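Whole-liver poly(A) RNA of 16 mice, 2 per group, was sequenced by the authors, aligned to mm10 with HISAT2 and deposited as 1 table of FPKM for 53379 genes. The authors used DESeq2 for their own tests.

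FPKM values were tested with limma 3.58.1 (trend) in R 4.3.3 on log2(FPKM + 1), for the 14913 genes that reached 1 FPKM in 2 or more libraries, with a coefficient for each of the 8 groups and Benjamini-Hochberg adjustment over all 14913 genes. The genes, lists and comparisons were chosen with earlier results of these data known. The genes named are all 10 members, up to 4 of each further macrophage list with the smallest adjusted p at W4, every ligand or regulator called at any age, and the 5 genes most like Clec4f and Gpnmb by Pearson's r, predicted genes left out. The same rule also took genes of other cells, which are given here as sums of their lists. 1 result that the rule would name is not reported here.

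Reads were recovered from the FPKM steps with the length of the longest annotated transcript (GENCODE M21): 96.1% of values under 200 reads lay within 0.05 of a whole number, and 99.8% of genes had a length. limma-voom was run on these reads, an alternative added after the data were seen, as were its median-of-ratios scale and the scale of 11 further general macrophage genes. The other alternatives were a pseudocount of 0.1 FPKM, no filter, median-of-ratios rescaling, scaling to nuclear genes, the replicate number as a block, a term for sex, the threshold of the study, libraries of 1 age alone, and each library left out. Both fits were run on simulated data with the same spread for every gene and few changed genes. These data differ from that setting, so the simulation does not bear on the calls given here. Read ratios carry exact 95% intervals. Promoter windows were taken from RefSeq, and Python 3.11.15 with pandas 2.3.3 and matplotlib 3.10.9 made the summaries and figures.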

Additional observations from a re-analysis of the deposited data

Results flagged for a closer look

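For 8 of the 10 genes the difference between cKO and Control livers itself differed between ages by the joint limma test of the 4 ages, against 49.6% of all genes. Gpnmb and Trem2 were tested only through the W4 cKO libraries, and of the other members 3 of 5 resident and 3 of 3 general genes passed. The adjusted p was 0.000315 for Marco, 0.0117 for Vsig4, 0.0348 for Cd5l, 0.0134 for Adgre1, 7.29e-05 for Cd68, 0.00377 for Csf1r, 7.01e-05 for Gpnmb and 0.0152 for Trem2. The W4 difference was the largest of the 4 ages for each of these 8 genes on log2(FPKM + 1). Groups of 2 libraries are too small for a check of single libraries against their group.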

How the results depend on the processing

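Of 878 values of the 34 called results under the alternatives, 772 kept their direction and their side of the threshold, 95 kept the direction but no longer passed, and 11 changed sign. All 11 came from the scale of the 11 further general macrophage genes: at W4 Clec4f (-1.12), Timd4 (-0.74) and Csf1r (-0.20), in the mean over ages Clec4f (-0.25), Timd4 (-0.16) and Csf1r (-0.041), and for W4 minus P1 in Control livers Timd4 (0.88), Cd5l (1.18), Adgre1 (0.71), Cd68 (0.79) and Csf1r (0.98). That scale moved the median of all genes by its own construction.

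The W1 count of 1 became 0 with sex as a term, without the filter and on the macrophage gene scale. Here too the term for sex rested on the P1 Control pair alone. The W2 count of 1 became 0 when scaled to nuclear genes. The W4 count of 10, all higher, became 5 on the macrophage gene scale, of which 4 were higher and Clec4f was lower. Those 4 include Gpnmb and Trem2, which were tested only through the W4 cKO libraries. The count for the mean over ages, 10, became 5 after median-of-ratios rescaling, 3 with a term for sex, 1 at the threshold of the study and 3 on the macrophage gene scale. The mean of Gpnmb and Trem2 against the resident genes, 0.25, became 2.37 with 0.1 FPKM added and lay between 0.02 and 0.54 otherwise. Beyond the constant, the filter and the fewer samples, the cause was not tested.

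With each library left out, the counts ran from 0 to 1 at W1, from 1 to 2 at W2, from 7 to 10 at W4, from 6 to 10 for the mean over ages, from 4 to 10 for the dependence on age, from 3 to 7 for W4 minus P1 in cKO livers and from 4 to 8 in Control livers. Without either W4 cKO library Gpnmb and Trem2 were not in the fit.

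The labels give same-numbered cKO and Control libraries only a number in common, and whether they came from the same litter is not stated. Their deviations correlated at 0.02 (P1), 0.13 (W1), 0.02 (W2) and 0.09 (W4), which cannot settle this. With the replicate number as a block the counts were 0, 1, 1 and 10 at the 4 ages, 9 for the mean over ages (without Clec4f), 9 for the dependence on age (with Timd4) and 6 for each W4 minus P1 comparison. Depth limited Gpnmb and Trem2 most, with 4 and 12 reads in the W4 Control libraries together.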
